A study of Mus musculus with 6 samples.

Results

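miR-221 and miR-222 are a pair of miRNAs whose hairpin precursors, Mir221 and Mir222, lie next to each other on the X chromosome. Each hairpin gives a 3p arm and a 5p arm, and the 4 arms were taken by name from a table of 1506 miRNAs measured in mouse oligodendrocyte progenitor cells (OPCs), the precursors of the oligodendrocytes that form myelin. All 4 were found, and all 4 reached the level at which miRNAs were tested. OPCs had been isolated from the cortex of newborn wild-type C57BL/6 mice and grown in medium with the growth factors PDGF-AA and bFGF, and 3 cultures were controls, called untreated here (the methods name both a vehicle and untreated cells), while 3 received 2.5 mg/mL of fibrinogen, the plasma protein from which clots are made. The study used this comparison to ask which miRNAs of OPCs change with fibrinogen. The table numbers the libraries by mouse, 1 to 3 in each group, but nothing says how many animals went into a culture or whether a number names the same mouse in both groups, so p-values measure the spread between these libraries. The duration of the treatment and the purity of the cultures are not given in the sources used here.

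A miRNA hairpin is cut into a short duplex, of which usually 1 strand, the guide, is loaded onto an Argonaute protein, while the other, the passenger strand, is mostly degraded. The guide pairs through its seed, bases 2 to 8, with matching sites in the 3′ untranslated region (UTR) of mRNAs and lowers their output. The 3p arms of miR-221 and miR-222 are known as the guide strands, and both are known to promote growth by targeting Cdkn1b, which encodes the cell cycle inhibitor p27, and to target Kit, which encodes the receptor of stem cell factor. They are also well known from endothelial and smooth muscle cells of blood vessels.

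The mature sequences, with the seed in capitals, show what the members share. They were taken from RefSeq (build GRCm38.p6, X chromosome, minus strand), where the mature sequences of 3 of the 4 members were matched by name. The member named only is miR-222-5p.
miR-221-3p: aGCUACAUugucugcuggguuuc
miR-222-3p: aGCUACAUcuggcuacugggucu
miR-221-5p: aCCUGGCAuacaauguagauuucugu
The first 8 bases of miR-221-3p and miR-222-3p are the same, so both have the seed GCUACAU, and over their 23 bases they have the same base at 11 positions. Their reads can therefore be told apart by the bases after the seed. In RefSeq the same seed is also carried by miR-1928, which has no value here, so that among the 1025 known miRNAs matched to RefSeq by name 2 carry it. The other miRNAs of the table were not searched for it.

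The hairpins are shown to place the arms, which are in capitals. In Mir221 both arms are marked, and in Mir222 only the 3p arm is marked.
Mir221: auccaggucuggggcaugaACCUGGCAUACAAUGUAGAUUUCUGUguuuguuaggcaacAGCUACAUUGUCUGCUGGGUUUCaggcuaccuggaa
Mir222: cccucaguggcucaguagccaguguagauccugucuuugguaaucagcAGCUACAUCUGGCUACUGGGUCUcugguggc
On GRCm39, the GENCODE annotation places Mir221 at chrX:19012533-19012627 and Mir222 at chrX:19013132-19013210, both on the minus strand with 504 bases between them. Both lie within the long non-coding RNA gene Gm26652, which is on the same strand. Mir221 overlapped an exon in 1 of the 12 Gm26652 transcripts that span it and was intronic in the other 11. Mir222 was intronic in all 11 that span it and overlapped an exon of 2 others that do not. Each hairpin is the only precursor found in RefSeq for its arms, with miR-222-5p assigned to Mir222 by the name without the arm.

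Sites that match the shared seed were looked up in the mRNAs for which the pair is best known. The letters searched were ATGTAGC, the complement of the seed, on the mRNA strand only, in the 3′ UTR of the canonical GENCODE transcript. Cdkn1b (3′ UTR of 3442 bases) holds 1 match, and Kit (2202 bases) holds 2. They are shown with the match in capitals on GRCm39, at chr6:134901383-134901411, chr5:75815641-75815669 and chr5:75817172-75817200, all on the plus strand.
Cdkn1b: aaaagcattggATGTAGCattgcgcaatt
Kit, first match: atgggagatatATGTAGCaagactagaaa
Kit, other match: taaatattgaaATGTAGCaataatgtctt
In each of these the match is followed by an A. No match to these letters was found in the 3′ UTR of Acvr1 (1108 bases), the BMP receptor that the study follows. For comparison, the letters occurred in 10.53% of 20658 mouse 3′ UTRs of at least 20 bases, and in 20.1% of the 4379 that are 2000 to 4000 bases long. These matches describe the sequences, and no mRNA or protein was measured here.

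Values are called TPM in the table and are reads of a miRNA scaled to a common library total, with no correction for length. A small RNA read covers a whole miRNA, so levels of different miRNAs are set side by side on this scale. No correction was made for how readily each sequence enters a library. Ratios between different miRNAs, or between arms, are therefore ratios of reads and may differ from ratios of molecules. Reads could be recovered as whole numbers, 11897645 to 14847034 a library, and the members took 122 to 29209 reads each in a library. Of the 1506 miRNAs, 607 reached 1 TPM in 3 or more libraries and were tested with limma on log2(TPM + 1), with p adjusted over all 607. By this test 2.14% of the miRNAs were higher and 0.659% were lower with fibrinogen at an adjusted p under 0.05, that is 13 and 4, or 2.8% in either direction. DESeq2 on the recovered reads gave 27 higher and 37 lower. Over the 607 miRNAs the log2 fold change had a median of 0.13, which median-of-ratios scaling moved to 0.0029, so the fold change of each member is also given relative to this median.

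The order of the levels was the same in every library, with miR-221-3p first, then miR-222-3p, miR-221-5p and miR-222-5p, and the ranges of these 4 over the 6 libraries did not overlap. By mean TPM over all libraries they were 47th, 94th, 180th and 330th among the known miRNAs. miR-221-3p had 2083, 2312 and 1605 TPM in libraries 1 to 3 of untreated OPCs, and 2180, 1934 and 2199 TPM in libraries 1 to 3 of those given fibrinogen. The lowest and the highest value were both in untreated libraries, so the groups overlapped throughout. Untreated OPCs averaged 2000 ± 361 TPM and treated OPCs 2105 ± 148 TPM (SD, n = 3 each), which is 0.09 ± 0.15 (standard error) on the log2 scale (limma, adjusted p = 0.735; exact permutation test, p = 0.8). The 95% interval of the fold change ran from -0.27 to 0.44 on the log2 scale, so that a rise or a fall within that range was not excluded with 3 libraries in a group. Relative to the median of all miRNAs it was -0.04. Its sign rested on the scaling and on untreated library 3: it was -0.046 with median-of-ratios scaling, -0.090 with edgeR, -0.086 with DESeq2 and -0.063 without that library.

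miR-222-3p, which carries the same seed, had untreated levels of 422, 442 and 371 TPM and treated levels of 468, 436 and 519 TPM. Untreated library 2 was above fibrinogen-treated library 2, and the other values of the groups were apart. The means were 412 ± 36.8 and 475 ± 41.9 TPM (SD, n = 3 each). On the log2 scale this is 0.20 ± 0.12 (standard error), with an interval of -0.09 to 0.50 (limma, adjusted p = 0.331; exact permutation test, p = 0.2), and 0.08 relative to the median of all miRNAs. The log2 fold change was 0.044 with edgeR and 0.048 with DESeq2 on the recovered reads, and 0.072 with median-of-ratios scaling. The 3p arms summed came to 2412 ± 398 TPM (untreated) and 2579 ± 184 TPM (treated; SD, n = 3 each; exact permutation test, p = 0.7). The difference of 168 TPM became -73.5 TPM with median-of-ratios scaling and -50.5 TPM without untreated library 3, so its sign rested on the scaling and on that library.

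The 5p arms were far scarcer. miR-221-5p had untreated levels of 86.7, 66.2 and 77.3 TPM and treated levels of 104, 91.4 and 101 TPM. Every fibrinogen-treated library was above every untreated one. The means were 76.7 ± 10.3 and 98.6 ± 6.51 TPM (SD, n = 3 each), 28.5% higher, or 0.36 ± 0.15 (standard error) on the log2 scale with an interval of 0.01 to 0.72. In limma p was 0.0443 before adjustment and 0.184 after it, which is not a call (exact permutation test, p = 0.1, the smallest that 3 against 3 can give). Relative to the median of all miRNAs it was 0.24, and it lay between 0.21 and 0.46 in 20 other settings, in none of which it was called.

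miR-222-5p had untreated levels of 13.1, 10.51 and 11.4 TPM and treated levels of 9.93, 9.63 and 9.93 TPM. The treated libraries all lay below the untreated ones, and untreated library 2 lay closest to them. The means were 11.6 ± 1.30 and 9.83 ± 0.172 TPM (SD, n = 3 each), or -0.22 ± 0.16 (standard error) on the log2 scale with an interval of -0.60 to 0.16 (limma, adjusted p = 0.405; exact permutation test, p = 0.1). It had 165, 125 and 170 reads in untreated and 133, 134 and 122 in fibrinogen-treated libraries, so counting error alone reached 9.05% in a library, and the gap between untreated library 2 and the fibrinogen-treated libraries was within it. Relative to the median of all miRNAs the log2 fold change was -0.34, and it ran from -0.47 (quantile normalization) to -0.14 (without untreated library 1) over 20 other settings, in none of which it was called.

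**Figure D1:**
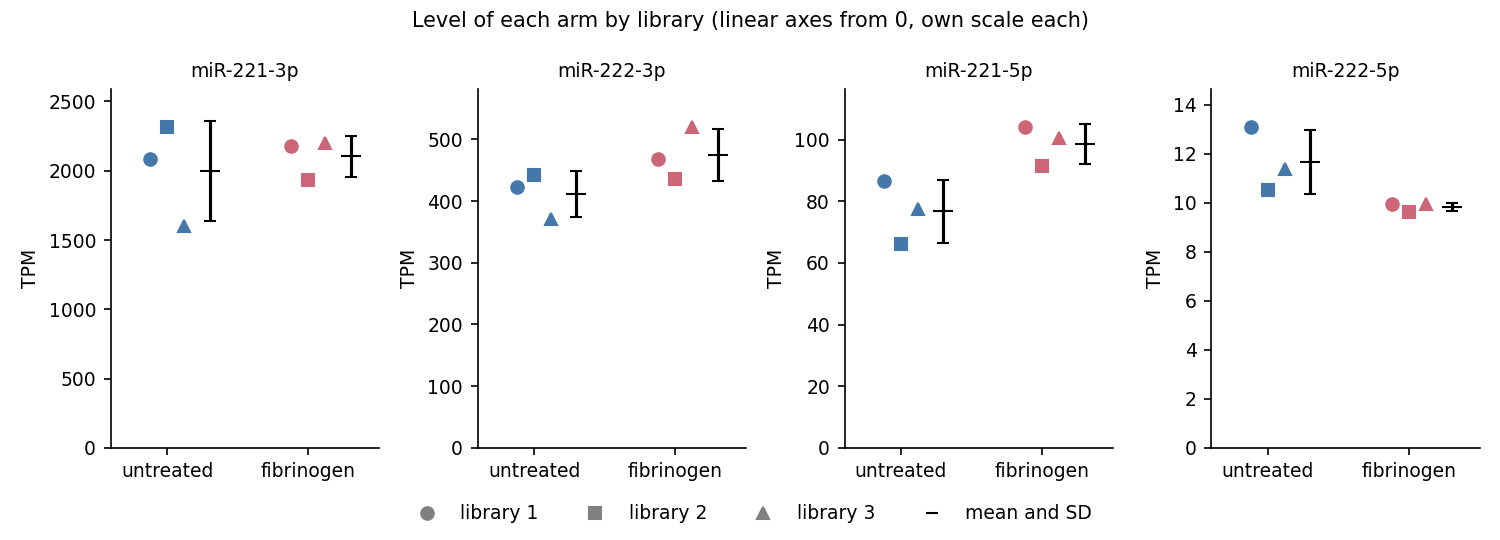
Level in TPM of each arm in each library, on linear axes that start at 0 and have their own scale; symbols mark libraries 1 to 3 and bars the mean and SD of 3 libraries. The groups overlap for both 3p arms, while miR-221-5p lies at 66.2 to 86.7 TPM without and 91.4 to 104 TPM with fibrinogen, and miR-222-5p at 10.51 to 13.1 and 9.63 to 9.93 TPM.

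None of the 4 members was called at an adjusted p under 0.05. The cutoffs of the study were an unadjusted p under 0.05 with an absolute log2 fold change above 1. Applied to the limma fit, they were met by no member and by 3.95% of the tested miRNAs. The study took its p-values from edgeR and reported its own counts, with which this share is not compared. At an unadjusted p under 0.05 there was 1 member, miR-221-5p, where 20.1% of all tested miRNAs were higher and 5.6% lower by that measure, 25.7% in all. Both 5p arms had groups that did not overlap, 1 higher and 1 lower. Among all tested miRNAs 24.4% were higher and 8.73% lower without overlap, 33.1% in all, so that 2 of 4 members is not set apart from the table. A larger log2 fold change than that of miR-221-5p was found in 30.6% of the tested miRNAs, and than that of miR-222-5p in 81.9%.

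**Figure D2:**
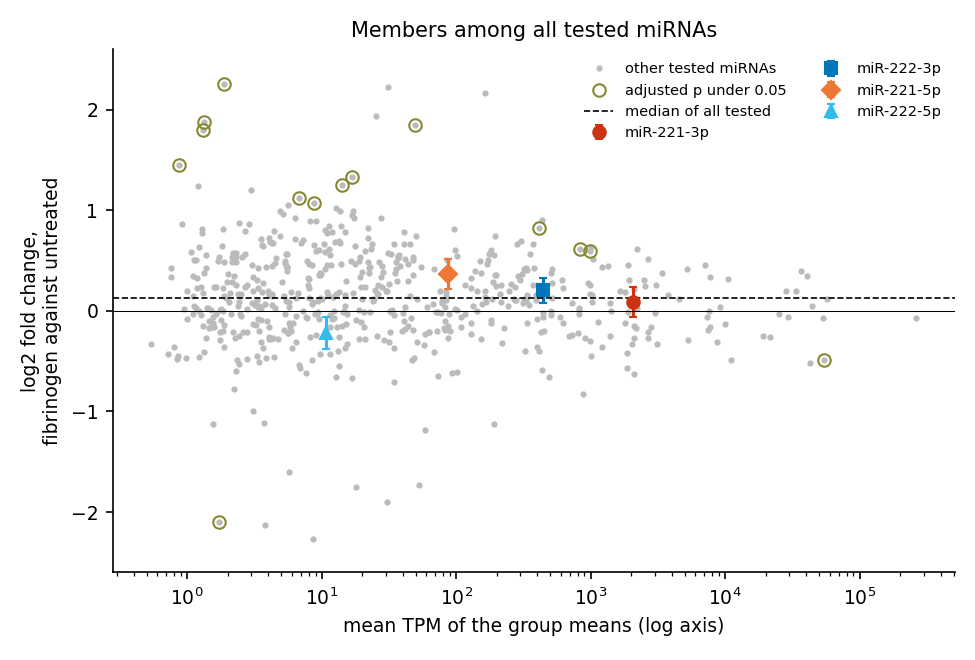
Log2 fold change against the mean TPM of both groups (log axis) for the tested miRNAs, with the 4 members in colour (bars are standard errors of limma), circles for miRNAs at an adjusted p under 0.05, and a dashed line at the median of 0.13; 4 miRNAs lie beyond the axis. The members lie within the cloud of other miRNAs, and none is circled.

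Ratios within a library do not depend on its total and were compared for this reason. The 3p arm took nearly all reads of both hairpins, as is usual for a guide strand. The 5p arm took 4.0%, 2.78% and 4.60% of the miR-221 reads in untreated and 4.55%, 4.51% and 4.37% in fibrinogen-treated libraries. Untreated library 2 stood below the other 5, with an interval of 2.598% to 2.98% (Wilson, 95%, counting error only) against lower limits of at least 3.77% in the others. The groups overlapped (3.79% ± 0.924 and 4.48% ± 0.0914, SD, n = 3 each; exact permutation test, p = 0.4).

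For miR-222 the 5p arm took 3.00%, 2.32% and 2.98% of the reads in untreated and 2.08%, 2.16% and 1.88% in fibrinogen-treated libraries. All fibrinogen-treated libraries were below all untreated ones (2.77% ± 0.384 and 2.04% ± 0.146, SD, n = 3 each; exact permutation test, p = 0.1, the smallest possible). The interval of untreated library 2 (1.95% to 2.76%) included all 3 fibrinogen-treated values except that of library 3. Of the 162 hairpins with both arms tested, 15.4% had a lower and 13% a higher share of the 5p arm without overlap between the groups, 28.4% in all, so a shift of this kind was not rare. The log2 fold change of the 5p arm minus that of the 3p arm was 0.28 for miR-221 and -0.42 for miR-222, against a median absolute difference of 0.27 over the 162 hairpins. Arms of opposite sign, as in miR-222, were found in 35.2% of them.

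The hairpins were also set against each other. miR-221-3p was 4.93, 5.23 and 4.33 times miR-222-3p in untreated and 4.66, 4.44 and 4.24 times in fibrinogen-treated libraries, with overlap. Its share of the summed 3p arms was 82.8% ± 1.40 and 81.6% ± 0.710 (SD, n = 3 each; exact permutation test, p = 0.3). The 5p arms differed more: miR-221-5p was 6.64, 6.30 and 6.80 times miR-222-5p in untreated and 10.47, 9.49 and 10.1 times in fibrinogen-treated libraries. The untreated libraries averaged 6.58 ± 0.257 (SD, n = 3), the lowest treated library was at 9.49, and the spread within each group was small beside the gap. As a share of the summed 5p arms miR-221-5p took 86.3% to 87.2% in untreated and 90.5% to 91.3% in fibrinogen-treated libraries. The Wilson intervals of the untreated libraries ended at 88.4% to 88.9%, and those of the fibrinogen-treated libraries began at 88.8% to 89.8%. This ratio was chosen after its values had been seen and is given as a description. It joins the 2 members whose groups did not overlap in opposite directions, so it is no measurement apart from theirs.

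**Figure D3:**
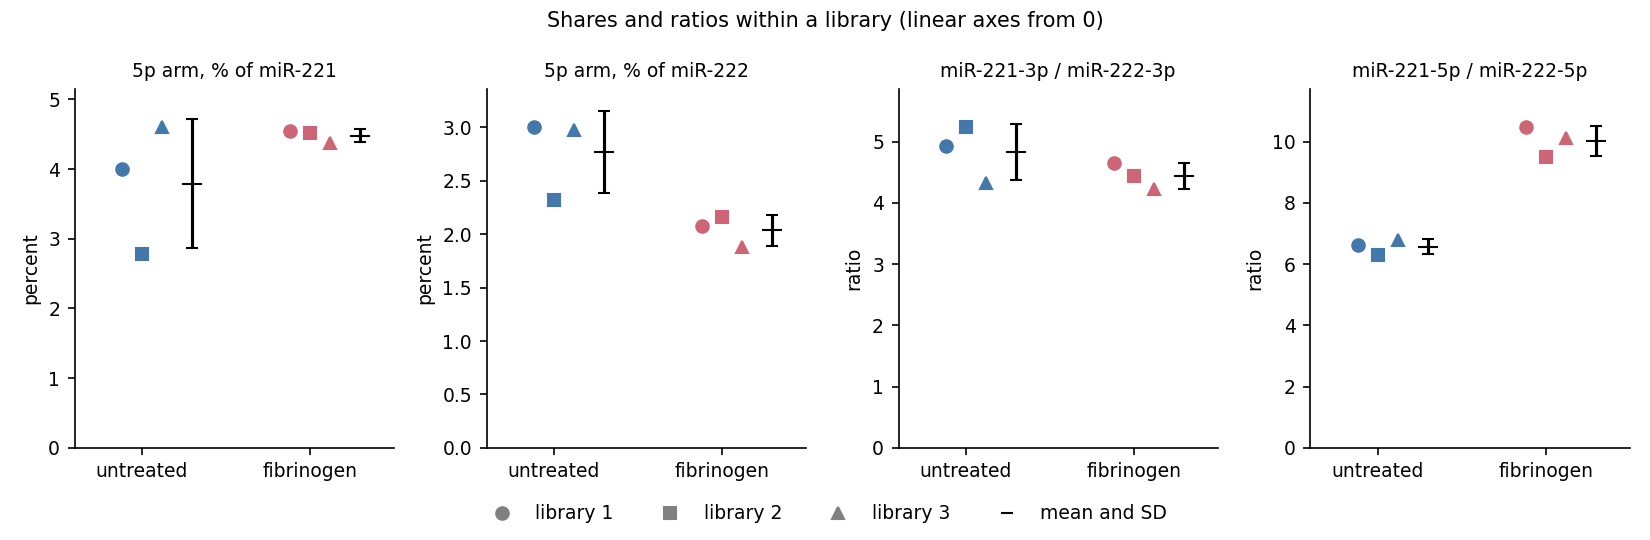
Share of the 5p arm in percent among the reads of miR-221 and of miR-222, and ratios of miR-221 to miR-222 for the 3p and 5p arms, by library on linear axes that start at 0, with bars for the mean and SD of 3 libraries. The ratio of the 5p arms is 6.30 to 6.80 in untreated and 9.49 to 10.47 in fibrinogen-treated OPCs, while that of the 3p arms overlaps.

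In the order of levels each member stood among miRNAs from which it could not be told apart. miR-221-3p, at a mean of 2052 TPM over the 6 libraries (1605 to 2312), lay between miR-136-5p at 2096 TPM (1395 to 3854) and miR-135a-5p at 2034 TPM (1624 to 3126). miR-222-3p, at 443 TPM, lay between miR-124-5p at 449 TPM and miR-341-3p at 442 TPM. miR-221-5p, at 87.7 TPM, lay between miR-181c-3p at 88.8 TPM and miR-380-5p at 87.3 TPM, and miR-222-5p, at 10.7 TPM, between miR-205-5p at 10.9 TPM and miR-449a-5p at 10.7 TPM. In all 8 cases the ranges over the libraries overlapped.

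The miRNAs whose log2 level was most like that of a member over the 6 libraries were found by Pearson's r among the known miRNAs that averaged 10 TPM or more, 333 for each member. The 6 points share their libraries and the group difference, and with so few points the highest of 333 values are high in any case, so these are descriptions. For miR-221-3p they were miR-3059-5p, miR-181d-5p, miR-337-5p, miR-212-5p and miR-541-3p (r = 0.81 to 0.85), and for miR-222-3p miR-181d-5p, miR-329-3p, miR-1198-5p, let-7d-5p and miR-149-5p (0.93 to 0.96). The 3p arms had r = 0.79 with each other, the 10th highest value for miR-221-3p. For miR-221-5p they were miR-100-5p, miR-3535, miR-99a-5p, miR-532-5p and miR-92a-3p (0.95 to 0.99), of which miR-100 and miR-99a are of one family. For miR-222-5p they were miR-9-5p, miR-128-3p, miR-34b-5p, miR-29a-3p and miR-26a-2-3p (0.78 to 0.94).

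With the group means removed, which leaves the spread among replicates, the 5p arms had r = 0.92 with each other, the third highest value for miR-221-5p and the fourth highest for miR-222-5p, and the 3p arms 0.88. Between the arms of 1 hairpin r was -0.15 for miR-221 and 0.03 for miR-222. With so few libraries such values do not show that the arms vary apart. The most alike were then miR-181d-5p, miR-451a, miR-144-5p, miR-488-3p and miR-15b-5p for miR-221-3p (0.942 to 0.996) and miR-872-5p, miR-431-5p, miR-181d-5p, miR-107-3p and miR-329-3p for miR-222-3p (0.91 to 0.96). For miR-221-5p, beside miR-222-5p, they were miR-100-5p, miR-195a-5p, miR-140-3p and miR-1839-5p (0.88 to 0.95), and for miR-222-5p, beside miR-221-5p, miR-34c-5p, miR-92a-3p, miR-34b-5p and miR-140-3p (0.88 to 0.98). miR-451a and miR-144 are known from red blood cells. miR-451a had untreated levels of 288, 428 and 107 TPM and treated levels of 116, 96.4 and 112 TPM. In untreated library 3, where miR-451a had 107 TPM, miR-221-3p was lowest, at 1605 TPM. In the fibrinogen-treated libraries miR-221-3p had 2180, 1934 and 2199 TPM. A relation between the levels of miR-451a and miR-221-3p was not tested.

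Other miRNAs with roles like those of the members were read from the same fit. Of 15 miRNAs known to promote growth, 13 were tested and none was called. Their median log2 fold change was 0.005, against 0.13 for all tested miRNAs. The most abundant were miR-21a-5p, at 3489 ± 523 and 2792 ± 558 TPM (-0.33 on the log2 scale, limma, adjusted p = 0.279), and miR-93-5p of the miR-106b cluster, at 470 ± 52.7 and 566 ± 28.2 TPM (0.27, adjusted p = 0.208; SD, n = 3 each). Of 20 miRNAs known to restrain growth, all were tested, with a median of 0.23, and 1 was called, where 2.8% of all tested miRNAs were. It was miR-503-5p, which restrains the cell cycle and rose from 9.10 ± 2.13 to 24.3 ± 4.44 TPM (SD, n = 3 each; log2 fold change 1.33, adjusted p = 0.0262 from limma). The most abundant were let-7f-5p and let-7c-5p, with 0.12 and 0.35 (adjusted p = 0.33 and 0.119). In this list 14 of 20 fold changes were above 0, as were 62.9% of all tested.

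Of 11 other miRNAs known to target Cdkn1b or Kit, 8 were tested and none was called, with a median of -0.06 and a range of -0.49 to 0.61. The most abundant were miR-137-3p, known to target Kit, with a log2 fold change of -0.31 (adjusted p = 0.175 from limma), and miR-24-3p, known to target Cdkn1b, with 0.31 (adjusted p = 0.193). In summed level these miRNAs had 17738 to 18916 TPM in untreated and 17662 to 18669 TPM in fibrinogen-treated libraries, which overlap. The 4 members together had 2064 to 2831 TPM and 2471 to 2829 TPM. miR-137-3p is also among the growth-restraining miRNAs and the neuronal markers below.

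Since Mir221 and Mir222 are X-linked, other miRNAs of this chromosome were set beside them. Of 101 other known miRNAs placed on the X chromosome alone in RefSeq, 43 were tested, with a median log2 fold change of 0.22, against 0.12 for 386 tested autosomal miRNAs. Of these 43, 2 were called, both higher, miR-503-5p and miR-322-3p, which are of one cluster. Among the 386 autosomal miRNAs 5 were called higher and 1 lower, and of all tested miRNAs 2.8% were called. The most abundant were miR-384-3p and miR-384-5p, with -0.36 and -0.25 (adjusted p = 0.153 and 0.285 from limma). Among the known miRNAs placed on the X chromosome alone, miR-221-3p was the most abundant. Members included, these miRNAs had 5962 to 7199 TPM in an untreated library and 6454 to 7165 TPM in a fibrinogen-treated one.

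Markers of other cells that the cultures could hold were measured alongside. By the methods of the study, meninges and blood vessels were taken off before dissociation and microglia were shaken off the flasks. All 5 miRNAs of the oligodendrocyte lineage were present in every library, with a summed level of 12246 to 16652 TPM in untreated and 11456 to 14340 TPM in fibrinogen-treated libraries, led by miR-138-5p and miR-338-3p. These 2 had log2 fold changes of -0.13 and -0.16. None of the 5 was called, 3 were above 0, and the median was 0.002. miR-219a-2-3p, named for its values, had 306 ± 74.0 TPM without and 571 ± 117 TPM with fibrinogen (SD, n = 3 each). Its groups did not overlap (log2 fold change 0.91, adjusted p = 0.0836 from limma). Both endothelial markers were present too, miR-126a-3p and miR-126a-5p, with a summed level of 10630 to 14101 and 10598 to 13328 TPM. miR-126a-3p was highest in untreated library 3, at 10625 TPM, the library in which both 3p arms of the members were lowest. It was nearly as high in fibrinogen-treated library 1, at 10441 TPM, where miR-221-3p had 2180 TPM and miR-222-3p 468 TPM. A relation between them was not tested. Of 6 markers of mural cells and fibroblasts 5 were tested and all 5 fold changes were above 0, as were 62.9% of all tested miRNAs. None of the 5 was called, and 1 had groups that did not overlap, against 33.1% of all tested miRNAs. The 6 markers had a summed level of 2435 to 3040 TPM in untreated and 3203 to 4352 TPM in fibrinogen-treated libraries. The most abundant, miR-143-3p, had 2192 ± 226 TPM without and 3147 ± 504 TPM with fibrinogen (SD, n = 3 each; limma, adjusted p = 0.103), and miR-199a-3p had a log2 fold change of 0.56 (adjusted p = 0.21).

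Of the other lists, the 7 neuronal markers, led by miR-128-3p and miR-124-3p, had 118493 to 125609 TPM in untreated and 96108 to 100720 TPM in fibrinogen-treated libraries, and miR-128-3p was called, at -0.49 (adjusted p = 0.041 from limma). It made up most of the difference in the sum, with means of 63655 TPM (untreated) and 45234 TPM (treated). The median log2 fold change of the 7 was -0.035. Without overlap between the groups 3 were lower and 1 was higher, against 8.73% and 24.4% of all tested miRNAs. The 3 lower were miR-128-3p, miR-137-3p at -0.31 and miR-218-5p at -0.25. Another 3 were above 0 without being called, miR-129-5p at 0.52, with groups that did not overlap, miR-132-3p at 0.25 and miR-212-3p at 0.19. Of these 6, all but miR-128-3p are named here for their values. The 6 microglial and immune markers, led by miR-142a-3p and miR-146a-5p, had 1766 to 2478 and 1748 to 2073 TPM, with 2 of 6 fold changes above 0 and a median of -0.26. None was called, and the list went both ways, with 2 higher and 2 lower without overlap between the groups, against 24.4% and 8.73% of all tested miRNAs. Named for their values, miR-150-5p and miR-146a-5p had log2 fold changes of 0.70 and 0.43, and miR-142a-3p and miR-155-5p of -0.45 and -0.49. The 3 red blood cell markers, led by miR-451a and miR-144-3p, had 167 to 594 and 146 to 171 TPM, with 1 of 3 above 0 and a median of -1.13. No marker of these lists was at 0 in every library. The part of these cells in the levels of miR-221 and miR-222 was not tested, and in bulk RNA fewer cells of a type and less RNA per cell cannot be told apart.

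The fold change of known miRNAs moved with the GC content of their precursors (Spearman rho = 0.396, Pearson r = 0.348 across 436 miRNAs, which are not independent replicates). The precursors had GC contents of 47.4% for Mir221, near the median of 48.7%, and 54.4% for Mir222, above it. The trend had values of 0.11 and 0.24 on the log2 scale at these, beside reported fold changes of 0.09 for miR-221-3p and 0.20 for miR-222-3p. After correction for it the log2 fold changes were 0.12 for miR-221-3p, 0.40 for miR-221-5p, 0.11 for miR-222-3p and -0.31 for miR-222-5p, and none was called.

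**Figure D4:**
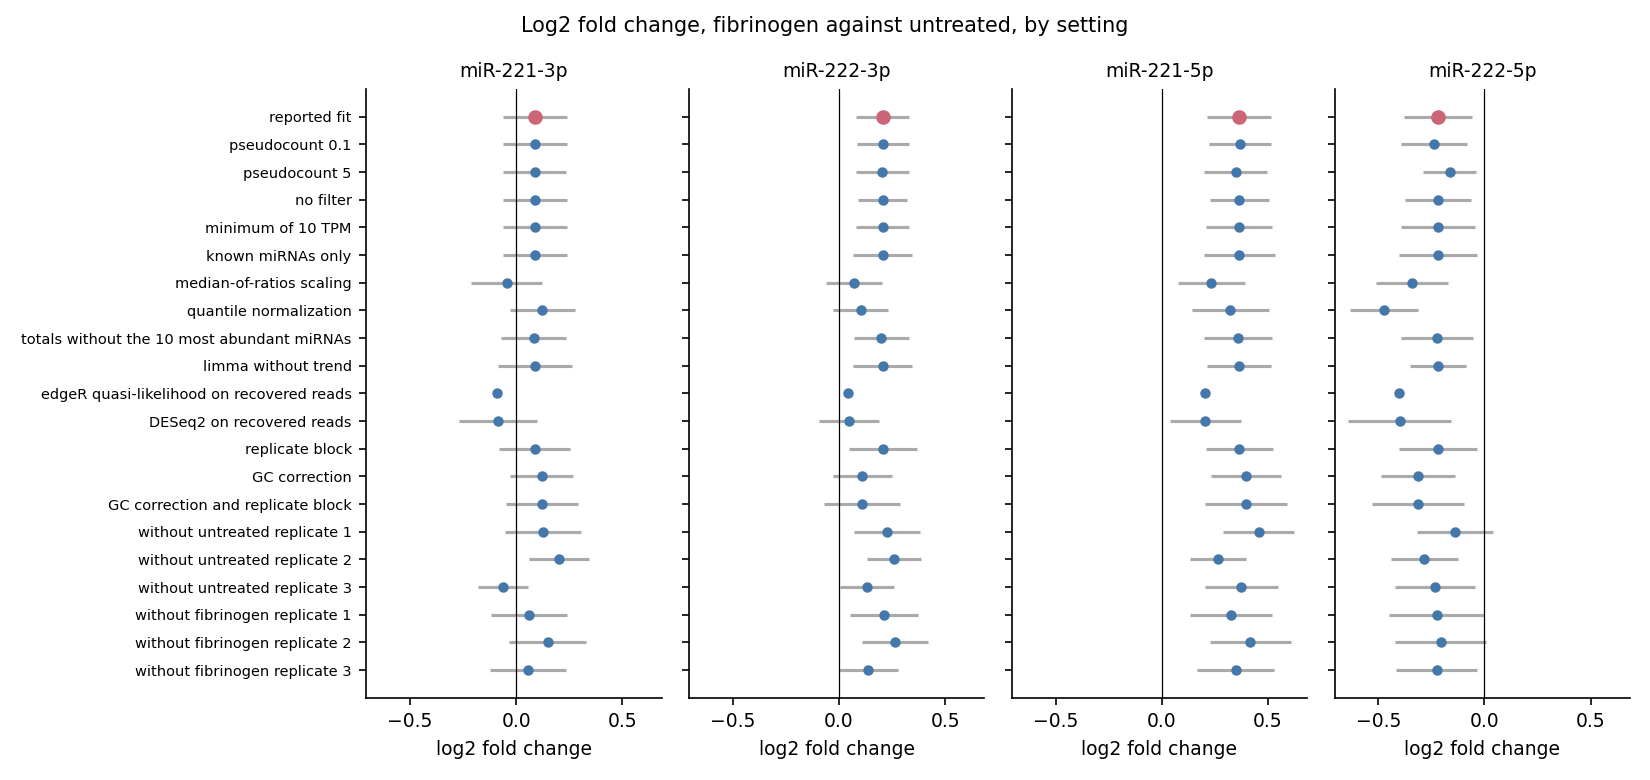
Log2 fold change of each member in the reported fit (red) and in 20 other settings (blue), with the standard error as a bar where the tool gives one (edgeR gives none). miR-221-5p stays above 0 and miR-222-5p below 0 in all settings shown, miR-222-3p stays above 0 by 0.04 to 0.26, and miR-221-3p lies on both sides of 0.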

How the data were processed

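Small RNA libraries of 3 untreated and 3 fibrinogen-treated OPC cultures were analysed, with groups from the sample labels. Per the methods of the study, the authors filtered reads with the fastx toolkit, trimmed adapters with cutadapt 1.15, removed duplicates, mapped with Bowtie 1.1.2 (GRCm39 in the methods, mm10 in the labels) and took miRNA counts, with those of predicted miRNAs, from miRDeep2. The values deposited by the authors are called TPM and are RPM: in each library they are whole multiples of 1 step, 0.0669 to 0.0841, and within 0.1 of a whole number of steps for 99.8% to 100% of the values above 0. Libraries summed to 972508 to 1007872 TPM, and the 10 most abundant miRNAs took 65.5% to 68.5%. A count of 0 allows up to 3 reads, 0.201 to 0.252 TPM.

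From there, log2(TPM + 1) was fitted with limma 3.58.1 (R 4.3.3, eBayes with trend) for miRNAs that reached 1 TPM in 3 or more libraries, with Benjamini-Hochberg adjustment over all of them. The calculation was tested on simulated data. Errors of levels are SDs and those of fold changes are standard errors. Permutation tests of single values were exact and two-sided, and were not adjusted since 3 against 3 cannot go below 0.1. Alternatives used edgeR 4.0.16 and DESeq2 1.42.0 on the recovered reads, other pseudocounts (0.1 and 5), filters and scalings, a replicate block, a GC correction and leaving out each library. RefSeq matched 1025 of 1198 known miRNAs by name and 49 by the name without the arm, and 1012 had a precursor sequence. The text names the members, miRNAs with their seed, their neighbours in level, the 5 most alike in pattern, and from each list the 2 most abundant and any called. A few other miRNAs of the marker lists are named for their values. The members and lists were chosen with earlier results of these data known.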

Additional observations from a re-analysis of the deposited data

How the results depend on the processing

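None of the 4 members was called in any of the 20 other settings, with adjusted p from 0.156 to 0.887. The sign of miR-221-5p, miR-222-3p and miR-222-5p was kept in all 20, and that of miR-221-3p in 16. miR-221-3p was at -0.046 with median-of-ratios scaling, at -0.090 with edgeR, at -0.086 with DESeq2, and at -0.063 without untreated library 3. Leaving out 1 library at a time gave log2 fold changes of -0.06 to 0.20 for miR-221-3p, 0.26 to 0.46 for miR-221-5p, 0.13 to 0.26 for miR-222-3p and -0.28 to -0.14 for miR-222-5p, differences in the 3p share of -1.09 to -0.18 points for miR-221 and 0.61 to 0.95 points for miR-222, and in the summed 3p arms of -50.5 to 339 TPM. The share of miR-221-5p among the 5p arms differed by 3.88 to 4.35 points, an alternative chosen after the values were seen.

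Deviations of same-numbered libraries correlated at 0.0377, 0.233 and 0.124, and those of libraries with different numbers at -0.195 to 0.0876. Each fibrinogen-treated library correlated most with the untreated library of its number. Untreated library 1, however, correlated more with fibrinogen-treated library 3 (0.0876) than with library 1 (0.0377). These values do not settle whether the libraries were paired. With the replicate block the log2 fold changes were 0.09, 0.36, 0.20 and -0.22 for miR-221-3p, miR-221-5p, miR-222-3p and miR-222-5p (limma, adjusted p = 0.768, 0.201, 0.456 and 0.496), and 11 miRNAs were higher and 4 lower.

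The count of all miRNAs called moved more than the members did. Against 13 higher, there were 8 with no filter, 7 with a minimum of 10 TPM, 8 with edgeR, 27 with DESeq2, 44 with the GC correction and replicate block together, and 0 to 39 without 1 library at a time (0 without fibrinogen-treated library 1, 39 without untreated library 3). Against 4 lower, there was 1 among known miRNAs alone, 37 with DESeq2, 2 with the GC correction, 10 with this and the replicate block, and 0 to 6 without 1 library at a time. The cause of these shifts was not tested. At 122 to 170 reads a library, a change in miR-222-5p of the size of its counting error is not detectable.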
